A study of Mus musculus with 8 samples.

Results

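The comparison described here was between mouse embryonic stem cells (ESCs) that lack Pcgf5 and their wild-type parents, before any differentiation. Its members were the day 0 libraries, 2 from Pcgf5-/- cells and 2 from wild type, which make up 4 of the 8 samples of the series. The remaining 4 were taken from both genotypes at day 6 of neural differentiation and were used here to share the estimate of the spread and to look up the same genes later. Polyadenylated RNA was sequenced and each gene's level was deposited as FPKM, the number of sequenced fragments scaled for transcript length and for the size of the library. All cells were of the MPI-II line, whose source is the 129S2/SvPas strain, and both genotypes grew on feeder cells in serum, LIF and the 2 kinase inhibitors CHIR99021 and PD0325901. The Pcgf5-/- cells were made with TALENs that cut the second exon, followed by puromycin and G418 selection and picking of single colonies, so the genotype and the history of the picked clone cannot be told apart. The labels do not say that replicates were separate cultures, so p-values measure only the spread between these samples, which may be technical.

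Polycomb repressive complex 1 (PRC1) places a single ubiquitin on histone H2A through its RING1 or RNF2 subunit, a mark linked to gene silencing. PCGF proteins are the subunits that define the different forms of the complex, and PCGF5 belongs to a variant form that lacks the CBX proteins of canonical PRC1. In ESCs, PRC1 and PRC2 are best known for holding developmental genes at low levels while the pluripotency genes are active.

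The targeted gene was examined first. Pcgf5 lies on chr19:36453557-36530694 (mm9), and the coding part of its second exon, the place of the TALEN cut, is shown because it is where the genotypes were made to differ. It spans chr19:36486615-36486726 on the plus strand, is 112 bases long and belongs to exon 2 of 9 in the reference transcript, with the start codon in capitals.
Pcgf5 exon 2: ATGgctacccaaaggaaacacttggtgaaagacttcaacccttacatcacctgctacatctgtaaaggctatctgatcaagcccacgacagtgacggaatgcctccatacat
Pcgf5 was at 5.18 and 3.63 FPKM in the wild-type samples and at 1.28 and 1.84 FPKM in the Pcgf5-/- samples. Both Pcgf5-/- values were below both wild-type values, at means of 1.56 ± 0.40 and 4.40 ± 1.09 FPKM (SD, n = 2). The fitted difference of -1.07 ± 0.28 (log2(FPKM + 1), SE) did not pass the threshold of 0.05 after adjustment over all genes (limma, Benjamini-Hochberg adjusted p = 0.105). At day 6 the gene was at 9.16 and 5.06 FPKM in wild type against 0.669 and 0.457 FPKM (log2 fold change -2.33, limma adjusted p = 0.00421). The FPKM of a whole gene does not say which exons the remaining signal came from. Of the 16 genes within 1 Mb of Pcgf5, 11 were tested and none was called by limma, against 0.333% of all genes tested. Their median log2 fold change was 0.04.

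Both genotypes held the defining ESC markers. The transcription factor gene Pou5f1 was at 333 and 374 FPKM in the wild-type samples and at 339 and 351 FPKM in the Pcgf5-/- samples. Sox2, its DNA-binding partner, was at 175 and 159 FPKM in the wild-type samples and at 158 and 156 FPKM in the Pcgf5-/- samples, and Nanog was at 306 and 290 against 391 and 335 FPKM. The 4 libraries each had between 11031 and 11587 genes over 1 FPKM, and their log2 values correlated at 0.962 to 0.974 between any pair over 13214 genes. No pair of the same genotype stood closer than the closest pair of different genotypes, since Pcgf5-/- replicate 1 with wild-type replicate 1 reached 0.974.

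The feeder layer was not equal between the libraries. Summed over 30 fibroblast genes, the level was 839 and 638 FPKM in the wild-type samples and 575 and 1500 FPKM in the Pcgf5-/- samples. By this sum, which genes of high level dominate, Pcgf5-/- replicate 2 held the most and replicate 1 the least. This order holds for the sum and not gene by gene. Wild-type replicate 2 was the lowest library for S100a4, Col1a2 and Lum, which lowers the wild-type mean of these genes. S100a4 was highest in wild-type replicate 1 and lowest in wild-type replicate 2, at 38.8 and 21.9 against 29.3 and 31.8 FPKM. Col1a2, a collagen chain of fibroblasts on chromosome 6, was at 59.8 and 31.6 FPKM in the wild-type samples and at 38.0 and 142 FPKM in the Pcgf5-/- samples. None of the 30 genes was called by limma, against 0.333% of all genes tested. Both Pcgf5-/- values were above wild type for 0 and below for 1 (Cyr61), against 34.6% and 13.3% of all genes tested. Their median log2 fold change was 0.40, with a range from -0.13 to 0.96 over the alternative settings. In these bulk samples fewer cells of a type and less RNA per cell cannot be told apart. None of the 30 genes was listed at 0 in any library, the lowest value being 0.358 FPKM for Lum in wild-type replicate 2. The part of the feeder RNA in the results that follow was not tested, except where values without Pcgf5-/- replicate 2 are given.

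The genes were next compared chromosome by chromosome, because chromosomes 6 and 11 stood above the rest. Ratios of mean FPKM, Pcgf5-/- over wild type, were taken for genes over 5 FPKM. On chromosome 6, 380 genes had a median ratio of 1.42, with log2 quartiles of 0.31 and 0.66. On chromosome 11, 703 genes had a median ratio of 1.47, with log2 quartiles of 0.38 and 0.74. The medians of the other 18 chromosomes lay between 1.00 and 1.08. Relative to the genes of those other chromosomes, chromosome 6 was 1.36-fold and chromosome 11 was 1.42-fold higher. Of the genes on chromosome 6, 94.5% were above the median of the others, as were 97.0% on chromosome 11. Among the genes tested there, both Pcgf5-/- values were above wild type for 68.0% on chromosome 6 and 75.5% on chromosome 11, against 24.8% to 34.0% on the other chromosomes.

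**Figure D1:**
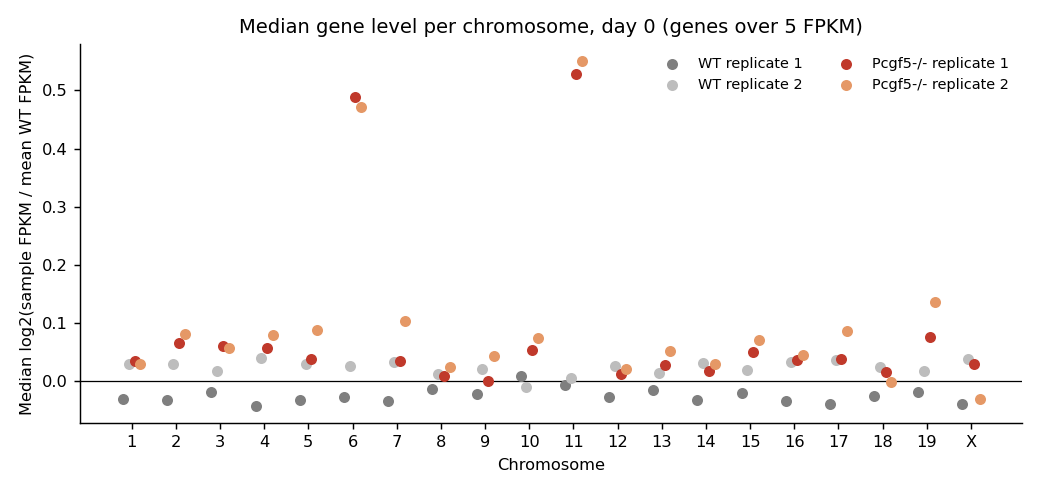
Median of log2(sample FPKM / mean wild-type FPKM) over genes above 5 FPKM for each chromosome (x axis), with 1 point for each of the 4 day 0 samples. The Pcgf5-/- points of chromosomes 6 and 11 stand apart, and relative to the other chromosomes they are at 0.45 and 0.41 on chromosome 6 and at 0.49 and 0.49 on chromosome 11.

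Each Pcgf5-/- library showed this on its own. Relative to the other chromosomes, the chromosome 6 median was 0.45 and 0.41 (log2) in Pcgf5-/- replicates 1 and 2, and the chromosome 11 median was 0.49 and 0.49. The wild-type libraries were within 0.02 of their own mean on both chromosomes. Of all FPKM in a library, chromosome 6 held 5.0% and 4.94% in wild type against 6.29% and 6.22% in Pcgf5-/- cells, and chromosome 11 held 9.92% and 9.96% against 12.7% and 12.8%. These shares did not overlap between the genotypes.

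The excess ran along the whole of both chromosomes. In windows of 10 Mb with at least 10 genes, the 13 windows of chromosome 6 had median log2 ratios between 0.31 and 0.64, and the 13 windows of chromosome 11 between 0.43 and 0.66. No window among 202 on the other chromosomes was above 0.3. Genes of low, middle and high expression gave like values, with medians relative to the others of 0.38, 0.47 and 0.45 on chromosome 6 and of 0.53, 0.51 and 0.49 on chromosome 11. At day 6 the same chromosomes were 1.38-fold and 1.35-fold above the others. The number of copies of each chromosome was not measured in these files and was not tested.

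**Figure D2:**
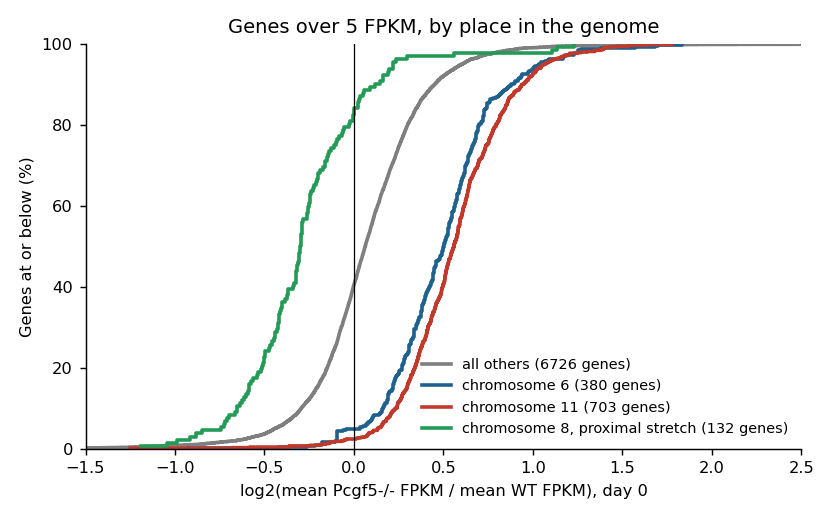
Cumulative share of genes over 5 FPKM (y axis, percent) against their log2 ratio of mean FPKM, Pcgf5-/- over wild type, at day 0 (x axis), for chromosome 6, chromosome 11, the proximal 60 Mb of chromosome 8 and all other genes. The curves of chromosomes 6 and 11 lie to the right of the 6726 other genes along nearly their whole length, with medians of 0.50 and 0.56 against 0.06, and that of chromosome 8 lies to the left, with a median of -0.30.

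Single genes on these chromosomes did not all follow. On chromosome 11, Osm, which encodes the LIF-family cytokine oncostatin M, was at 3.48 and 3.76 FPKM in the wild-type samples and at 1.45 and 1.71 FPKM in the Pcgf5-/- samples, below on a chromosome whose genes were mostly above. Calcoco2, an autophagy receptor on the same chromosome, was at 45.8 and 72.3 FPKM in the wild-type samples and at 31.3 and 42.5 FPKM in the Pcgf5-/- samples. Both genes were at the lower end for their chromosome. Krt42, a keratin gene, stood at the other end with 11.3 and 7.43 FPKM against 31.4 and 32.8 FPKM. On chromosome 6 the cytoskeletal gene Zyx was at 8.04 and 9.42 FPKM in the wild-type samples and at 17.8 and 38.3 FPKM in the Pcgf5-/- samples. None of these 4 genes passed the test (limma adjusted p = 0.09 for Osm, 0.272 for Calcoco2, 0.0541 for Krt42 and 0.0711 for Zyx).

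A stretch of chromosome 8 went the other way, which was noticed after the values were seen and is given as a description. Over its first 60 Mb, 132 genes above 5 FPKM had a median of -0.36 (log2) relative to the other chromosomes, a ratio of 0.781, while 339 genes beyond 60 Mb were at 0.04. Relative to the other chromosomes, this stretch stood at 0.09 and -0.10 in the wild-type libraries and at -0.35 and -0.34 in the Pcgf5-/- libraries. Of 196 genes tested there, 100 (51.0%) had both Pcgf5-/- values below wild type and 13 had both above, against 13.3% below among all genes tested. None was called at day 0 by limma, at 45 with an unadjusted p under 0.05 and lower, against 3.26% of all genes tested. At day 6, 58 were called lower, against 7.05% of all genes, where the median of the stretch was -0.48.

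Genes in this stretch included growth and cell-cycle regulators. Sfrp1, a secreted antagonist of Wnt signalling, was at 42.3 and 30.0 FPKM in the wild-type samples and at 16.4 and 15.3 FPKM in the Pcgf5-/- samples (log2 fold change -1.12 ± 0.20 SE, limma adjusted p = 0.0614). Irs2, an adaptor of the insulin receptor, was at 3.35 and 3.11 against 1.22 and 1.13 FPKM. For each of these genes the Pcgf5-/- and wild-type values did not overlap. Both were called lower at day 6 (log2 fold changes of -1.66 for Sfrp1 and -1.53 for Irs2, with limma adjusted p = 0.00421 and 0.00447). Tfdp1, the dimerization partner of E2F factors, lay in the same stretch at 108 and 83.5 against 66.9 and 67.6 FPKM.

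The test across all genes called few. Of 13214 genes with a mean over 1 FPKM in at least 1 of the 4 groups, 38 (0.288%) rose and 6 (0.0454%) fell in Pcgf5-/- cells at a limma adjusted p under 0.05. The adjusted p-values of the 38 genes lay between 0.0472 and 0.0494, at the edge of the threshold, and 1863 (14.1%) and 431 (3.26%) genes had an unadjusted p under 0.05 in the same directions. Without Pcgf5-/- replicate 1 the counts were 1 higher and 2 lower, without Pcgf5-/- replicate 2 they were 7 and 2, without wild-type replicate 1 they were 9 and 13, and without wild-type replicate 2 they were 0 and 3. The direction of all 44 called genes was kept in each of these fits. This was fixed beforehand, because their Pcgf5-/- and wild-type values did not overlap, and leaving out 1 library could not turn it. Centring the values on genes outside chromosomes 6 and 11 left 0 higher and 2 lower, and the unadjusted counts were then 1238 higher and 785 lower.

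The median log2 fold change of all genes tested was 0.11, and that of genes outside chromosomes 6 and 11 was 0.07. Quantile normalization moved the median of all genes by 0.12, to -0.01, so the medians of gene groups given in the following are to be read against 0.11.

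**Figure D3:**
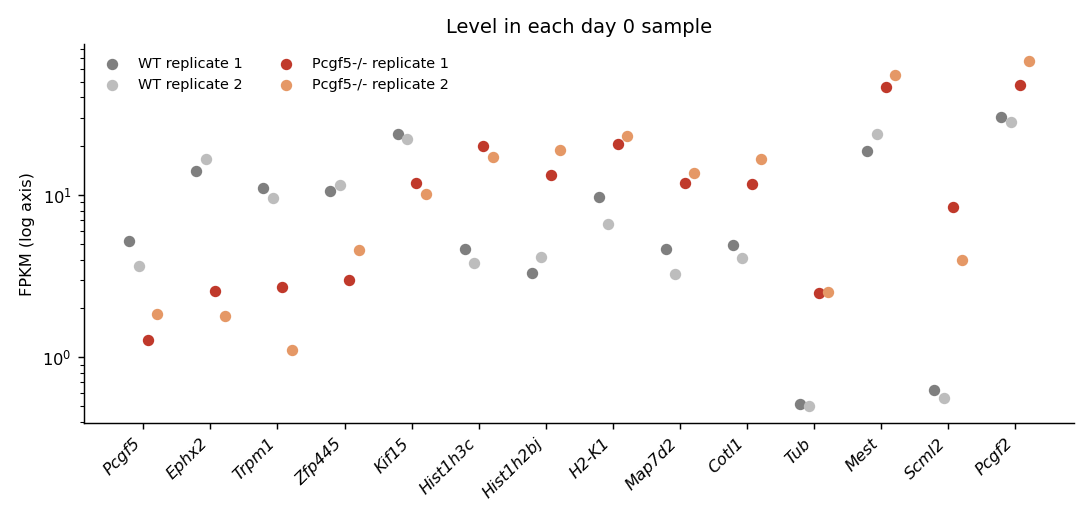
FPKM (log axis) of 14 genes in each of the 4 day 0 samples, 1 point a sample. The wild-type and Pcgf5-/- points do not overlap for any of the 14 genes, and Ephx2 falls from 14.1 and 16.6 to 2.54 and 1.797 FPKM while Hist1h3c rises from 4.66 and 3.82 to 20.05 and 17.3 FPKM.

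The 6 genes that fell were Ephx2, Trpm1, Zfp445, Kif15 and 2 short RNA genes. Ephx2 (chr14:66703209-66743359), the soluble epoxide hydrolase that converts fatty acid epoxides to diols, was at 14.1 and 16.6 FPKM in the wild-type samples and at 2.54 and 1.797 FPKM in the Pcgf5-/- samples, with no overlap. Its log2 fold change was -2.38 ± 0.22 (SE, limma adjusted p = 0.0261), and it was lower in each of the alternatives and called in 12 of 18. At day 6 Ephx2 was higher in Pcgf5-/- cells (log2 fold change 0.98, limma adjusted p = 0.0226), and the day 6 minus day 0 difference was 3.36 ± 0.31 (SE, limma adjusted p = 0.0136), a difference between days that 3.09% of all genes tested showed at this threshold. The other 33 genes of epoxide and glutathione metabolism that were tested had no call, against 0.333% of all genes tested. The median of the whole list was 0.15. Of its 34 genes, Ephx2 included, 7 were higher and 4 lower at a limma unadjusted p under 0.05, against 14.1% and 3.26% of all genes. Trpm1 (chr7:71298721-71414645), a cation channel gene of retina and melanocytes, was at 11.03 and 9.53 FPKM in the wild-type samples and at 2.72 and 1.10 FPKM in the Pcgf5-/- samples (log2 fold change -2.01 ± 0.27 SE, limma adjusted p = 0.0472). Its day 6 value was -0.14, which did not pass the test.

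Zfp445 and Kif15 are near neighbours on chromosome 9. Zfp445 (chr9:122758028-122775124), a KRAB zinc finger gene whose protein acts at imprinted regions, was at 10.7 and 11.6 FPKM in the wild-type samples and at 2.98 and 4.58 FPKM in the Pcgf5-/- samples (log2 fold change -1.36 ± 0.20 SE, limma adjusted p = 0.0475). Kif15 (chr9:122860199-122927851), a kinesin of the mitotic spindle, was at 23.9 and 22.2 against 11.8 and 10.1 FPKM (log2 fold change -1.01 ± 0.14 SE, limma adjusted p = 0.0472). Both genes were also called lower at day 6, at -1.35 and -0.88. They lie in a distal stretch, chr9:122714665-123839607, in which 16 genes were tested with a median of -0.34 at day 0 and -0.78 at day 6, a stretch chosen after its values were seen. In it 10 genes had both Pcgf5-/- values below wild type at day 0 and 0 had both above, against 13.3% and 34.6% of all genes tested. At day 6, 11 were called lower, against 7.05% of all genes. The 11 genes just before it had a median of 0.22 at day 0 and of -0.41 at day 6, when 10 of them were lower and 7 had both Pcgf5-/- values below wild type. Exosc7, a subunit of the RNA exosome in this stretch, was at 21.9 and 22.7 FPKM in the wild-type samples and at 12.8 and 11.7 FPKM in the Pcgf5-/- samples.

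The 2 short RNA genes were Gm24148, annotated over 147 bases, and Scarna6, a small Cajal body RNA annotated over 248 bases. Gm24148 was at 97.5 and 45.5 FPKM in wild type and Scarna6 at 2.86 and 1.63 FPKM, and both were listed at 0 in the 2 Pcgf5-/- samples, so no fold change is given. Both were also listed at 0 in all 4 samples of day 6. FPKM of genes shorter than 300 bases is uncertain in libraries of polyadenylated RNA, since few fragments fit within them.

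Of the 38 genes that rose, 24 were on chromosomes 6 and 11. These were 7 on chromosome 6 and 17 on chromosome 11, or 1.39% of the 1729 genes tested there, against 0.122% of the genes elsewhere, while the 2 chromosomes held 13.1% of all genes tested. Their median excess over their own chromosome was 0.55 (log2), and none was called when each chromosome was centred on its own median. The imprinted gene Mest, on chromosome 6 and expressed from the paternal copy, was at 18.6 and 23.9 FPKM in the wild-type samples and at 46.6 and 54.7 FPKM in the Pcgf5-/- samples (log2 fold change 1.22 ± 0.17 SE, limma adjusted p = 0.0472). Rimklb, an amino acid ligase gene on chromosome 6, was at 8.32 and 7.51 against 19.8 and 17.8 FPKM. Neither gene overlapped between the genotypes. On chromosome 11, Acsl6, a long-chain acyl-CoA synthetase gene, was at 0.842 and 0.897 FPKM in the wild-type samples and at 5.03 and 3.41 FPKM in the Pcgf5-/- samples, with a log2 fold change of 1.46 ± 0.21 (SE, limma adjusted p = 0.0472). Mtfp1, which encodes a mitochondrial fission protein, was at 2.75 and 3.85 FPKM against 10.2 and 10.3 FPKM, and the deacetylase gene Sirt7 was at 5.35 and 5.54 against 12.2 and 13.6 FPKM. For all 24 genes the Pcgf5-/- and wild-type values were apart. They were apart with Pcgf5-/- above for 68.0% of genes tested on chromosome 6 and 75.5% on chromosome 11. The 24 were picked by the test on these same samples, so this is no separate evidence.

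Among the 14 higher genes on other chromosomes, 7 encode histones and 7 do not. H2-K1, a class I histocompatibility gene on chromosome 17, was at 9.74 and 6.61 FPKM in the wild-type samples and at 20.6 and 23.0 FPKM in the Pcgf5-/- samples (log2 fold change 1.33 ± 0.18 SE, limma adjusted p = 0.0472). Map7d2, a microtubule-associated protein gene on the X chromosome, was at 4.64 and 3.25 against 11.8 and 13.8 FPKM. Cotl1, which encodes an actin-binding protein, was at 4.90 and 4.10 FPKM in the wild-type samples and at 11.8 and 16.6 FPKM in the Pcgf5-/- samples (log2 fold change 1.45 ± 0.21 SE, limma adjusted p = 0.0475). Neither Map7d2 nor Cotl1 overlapped between the genotypes. Tub, the gene of the tubby protein, was at 0.511 and 0.500 FPKM in the wild-type samples and at 2.48 and 2.53 FPKM in the Pcgf5-/- samples. Slain1, a microtubule plus-end protein gene, was at 3.50 and 2.41 against 8.15 and 7.87 FPKM, and the sulfotransferase gene Sult4a1 was at 5.76 and 5.18 against 12.5 and 12.4 FPKM. The remaining gene was Chmp1a, a component of the ESCRT-III membrane machinery, at 26.6 and 28.7 against 54.6 and 49.3 FPKM.

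The called genes differed in what they did at day 6. Of the 24 higher genes on chromosomes 6 and 11, 23 were also above wild type at day 6 and 15 were called higher, where 78.8% of the genes of these chromosomes were above and 25.3% were called higher. Among the 14 higher genes elsewhere, 11 were above wild type at day 6 and 2 (H2-K1 and Hist1h4d) were called higher, against 47.9% and 7.21% of genes outside the 2 chromosomes. Cotl1 and Tub were called lower at day 6, at -0.83 and -0.77. Of the 6 lower genes, 3 were below wild type at day 6 and 2 were called lower. The days share the same estimate of the spread in this fit, though not the same samples.

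**Figure D4:**
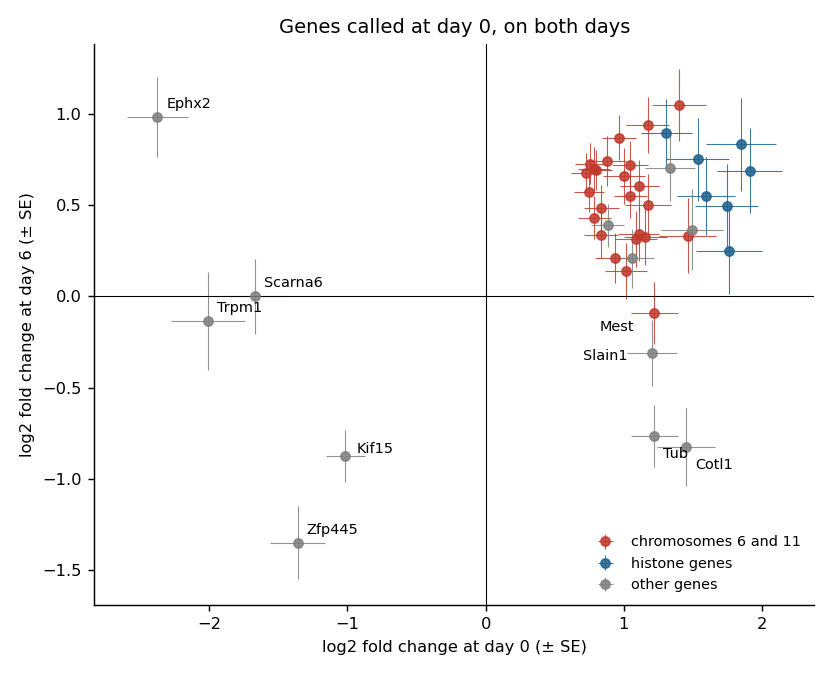
Log2 fold change of Pcgf5-/- against wild type at day 6 (y axis) and day 0 (x axis) for the called genes, with SE on both axes, in red for chromosomes 6 and 11, in blue for histone genes and in grey for other genes. Gm24148 is left out. Most higher genes stand in the upper right, while Cotl1 and Tub are at 1.45 and 1.22 on day 0 and at -0.83 and -0.77 on day 6.

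The replication-dependent histone genes were the group with the highest median. These genes supply histones in S phase, and most of their transcripts end in a stem-loop without a poly(A) tail, so libraries of polyadenylated RNA hold only a part of them. Of 75 entries of the annotation with such genes, 64 entries with 60 gene names were tested and 7 rose, against 0.288% of all genes. Both Pcgf5-/- values were above wild type for 44 of the 64 and below for 0, against 34.6% and 13.3% of all genes tested. Outside chromosomes 6 and 11, where 61 of the entries lie, those shares were 28.8% and 15.1%. Their median log2 fold change was 0.71 at day 0 and 0.06 at day 6, and over the alternative settings the day 0 median lay between 0.55 and 1.04. The 52 entries on chromosome 13 lie among genes whose own median was 0.05.

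Hist1h3c, a histone H3 gene, was at 4.66 and 3.82 FPKM in the wild-type samples and at 20.05 and 17.3 FPKM in the Pcgf5-/- samples (log2 fold change 1.91 ± 0.23 SE, limma adjusted p = 0.0472). Hist1h2bj, a histone H2B gene, was at 3.30 and 4.15 against 13.2 and 19.09 FPKM (log2 fold change 1.84 ± 0.25 SE, limma adjusted p = 0.0472). The histone H4 gene Hist1h4b was at 0.790 and 0.792 FPKM in the wild-type samples and at 3.88 and 6.37 FPKM in the Pcgf5-/- samples. In all 3 genes both Pcgf5-/- values were far above both wild-type values. The other called members were Hist1h2bk, at 4.06 and 3.39 against 12.2 and 14.4 FPKM, with Hist1h3e, Hist1h3h and Hist1h4d at log2 fold changes of 1.76, 1.53 and 1.31.

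By class, the H3 genes had the highest median at 1.09 over 13 entries, followed by H4 at 0.96 over 13, H2B at 0.65 over 17, H1 at 0.59 over 5 and H2A at 0.11 over 16. Their day 6 medians were 0.56, 0.06, 0.19, 0.05 and -0.10 in the same order. The H2A genes stood at the median of all genes. Near-identical copies share reads in this family, and for 20 of the 64 entries, 9 of them H2A, at least 1 deposited FPKM lay above its own confidence interval, so single members are uncertain. With the middle of that interval in place of the FPKM, an alternative chosen after seeing the data, the class medians were 0.89 for H3, 0.80 for H4, 0.58 for H2B, 0.57 for H1 and 0.10 for H2A.

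**Figure D5:**
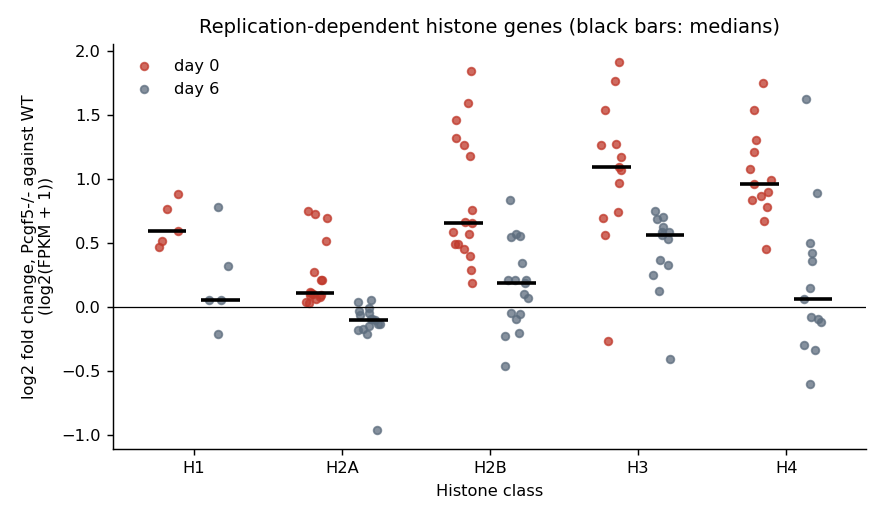
Log2 fold change (log2(FPKM + 1)) of Pcgf5-/- against wild type for each tested histone entry (points), by class, at day 0 in red and day 6 in grey-blue, with black bars at the medians. At day 0 the medians are 1.09 for H3, 0.96 for H4, 0.65 for H2B, 0.59 for H1 and 0.11 for H2A.

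Many H2A and H2B genes lie head to head and are transcribed away from a shared stretch of DNA. Among 8 such couples with 163 to 248 bases between the starts, the H2B gene had the larger log2 fold change in 7, with an H2B median of 1.22 and an H2A median of 0.10. In 6 of the 8 couples the H2A values lay above their interval. The H2B values of Hist1h2bj and Hist1h2bk lay above theirs in 2 samples each, and that of Hist1h2bl in 1. The shared stretches of the couples with the called genes Hist1h2bj and Hist1h2bk are shown because the members on either side of the same DNA had unlike values. Both are from the RefSeq sequence of GRCm38.p6, plus strand, at chr13:22042950-22043197 and chr13:22035644-22035820, with CCAAT boxes (on either strand) and the octamer ATTTGCAT in capitals.
Hist1h2ag to Hist1h2bj: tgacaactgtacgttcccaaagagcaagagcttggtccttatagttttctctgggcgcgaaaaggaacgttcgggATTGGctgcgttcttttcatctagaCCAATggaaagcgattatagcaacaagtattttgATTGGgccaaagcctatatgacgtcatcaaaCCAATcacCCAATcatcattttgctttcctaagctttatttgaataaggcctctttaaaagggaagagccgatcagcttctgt
Hist1h2ah to Hist1h2bk: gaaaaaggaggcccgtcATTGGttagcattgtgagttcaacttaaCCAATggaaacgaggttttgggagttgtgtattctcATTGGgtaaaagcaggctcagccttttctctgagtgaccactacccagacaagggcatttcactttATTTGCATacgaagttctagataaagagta
Across the first of these stretches Hist1h2ag was at a mean of 19.8 FPKM with Pcgf5 intact and 23.5 FPKM without it, while Hist1h2bj went from 3.73 to 16.2 FPKM. Across the second, Hist1h2ah was at 75.5 and 78.0 FPKM, while Hist1h2bk went from 3.73 to 13.3 FPKM.

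The promoters of the called H3 and H4 genes with the largest log2 fold changes are given in the same way, as the 150 bases before the start on the gene's own strand.
Hist1h3c (chr13:23745522-23745671, minus strand): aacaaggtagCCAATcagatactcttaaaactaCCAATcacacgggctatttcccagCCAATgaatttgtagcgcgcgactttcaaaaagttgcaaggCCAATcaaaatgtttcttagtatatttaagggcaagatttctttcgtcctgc
Hist1h4b (chr13:23756787-23756936, plus strand): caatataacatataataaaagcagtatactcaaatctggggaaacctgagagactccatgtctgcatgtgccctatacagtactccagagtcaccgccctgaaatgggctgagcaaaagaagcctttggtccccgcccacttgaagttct
CCAAT was searched on both strands in this window, as were TATAAA and ATTTGCAT, and matches were allowed to overlap. CCAAT was present in 45 of 55 histone promoters (81.8%) and in 24.5% of 32851 promoters in all, TATAAA in 38.2% and 7.57%, and ATTTGCAT in 16.4% and 0.998%. CCAAT was in 6 of the 7 called genes, in 14 of 14 H2A promoters and in 3 of 11 H4 promoters. A match is a description of the letters in the window.

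The factors of histone transcription and processing were measured as well. Slbp, whose protein binds the histone stem-loop, was at 99.0 and 78.4 FPKM in the wild-type samples and at 102 and 75.9 FPKM in the Pcgf5-/- samples. Npat, the S-phase coactivator of histone genes, was at 13.9 and 14.5 against 13.9 and 13.9 FPKM. Of 38 mitotic and S-phase genes, Kif15 fell and no other was called, at a list median of -0.06 and with 10 members below and 2 above in both Pcgf5-/- samples. Over all genes tested 0.0454% were called lower, 13.3% were below and 34.6% above. At an unadjusted p under 0.05, 7 members were lower and 1 higher, against 3.26% and 14.1% of all genes. The proliferation marker Mki67 was at 45.8 and 56.3 FPKM in the wild-type samples and at 35.5 and 34.9 FPKM in the Pcgf5-/- samples (limma adjusted p = 0.151).

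No member of the Polycomb complexes was called by limma, at an unadjusted p under 0.05 for 9 of the PRC1 partners (7 higher and 2 lower) and 4 of the PRC2 genes (3 higher and 1 lower). The shares over all genes tested were 14.1% higher and 3.26% lower. Of 52 tested genes of PRC1 and PRC2 other than Pcgf5, the 15 on chromosomes 6 and 11 had a median log2 fold change of 0.43, with 11 above wild type in both samples and 0 below. The 37 on other chromosomes had a median of -0.01, with 11 above and 9 below. Over all genes tested, 68.0% on chromosome 6 and 75.5% on chromosome 11 were above in this way. Outside these chromosomes, 28.8% were above and 15.1% below. By role, the list medians were 0.23 for the 6 PCGF genes, 0.06 for 35 PRC1 partners and 0.10 for 12 PRC2 genes.

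Among the paralogs, Pcgf2 (chromosome 11), which defines a canonical form of PRC1, was at 30.2 and 28.1 FPKM in the wild-type samples and at 47.5 and 66.9 FPKM in the Pcgf5-/- samples, without overlap (log2 fold change 0.93 ± 0.17 SE, limma adjusted p = 0.0622). Pcgf3, whose protein shares its partners most closely with PCGF5, was at 17.8 and 18.98 against 18.4 and 23.7 FPKM, and the ranges overlapped. Bmi1 (PCGF4) was at 9.77 and 10.1 FPKM in the wild-type samples and at 10.6 and 9.95 FPKM in the Pcgf5-/- samples, and Pcgf6 was at 24.4 and 23.2 against 31.8 and 26.5 FPKM.

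The catalytic subunit Rnf2 was at 43.4 and 49.5 FPKM in the wild-type samples and at 43.9 and 43.8 FPKM in the Pcgf5-/- samples, and its partner gene Ring1 at 3.28 and 3.62 against 3.90 and 4.63 FPKM. Yaf2, a RYBP-family subunit of variant PRC1, was at 2.94 and 3.39 FPKM in the wild-type samples and at 6.60 and 9.39 FPKM in the Pcgf5-/- samples (limma adjusted p = 0.0614). E2f6, the DNA-binding factor of the PCGF6 complex, was at 7.19 and 7.18 against 12.3 and 12.2 FPKM (limma adjusted p = 0.0622). Both genes were above in Pcgf5-/- cells without overlap, and neither passed the threshold.

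Scml2, an X-linked Polycomb protein gene, had the largest difference of the PRC1 partners. It was at 0.626 and 0.563 FPKM in the wild-type samples and at 8.43 and 3.97 FPKM in the Pcgf5-/- samples, a log2 fold change of 2.1 ± 0.33 (SE) that just missed the threshold (limma adjusted p = 0.0501). Scml2 was called higher at day 6 (log2 fold change 1.96, limma adjusted p = 0.00944), as were 9.57% of all genes tested. In PRC2, Suz12 (chromosome 11) was at 73.4 and 73.0 FPKM in the wild-type samples and at 117 and 103 FPKM in the Pcgf5-/- samples, and the methyltransferase gene Ezh2 (chromosome 6) was at 57.9 and 50.7 against 73.1 and 67.4 FPKM. Eed, a core subunit on chromosome 7, was at 90.1 and 94.1 FPKM in the wild-type samples and at 75.8 and 67.4 FPKM in the Pcgf5-/- samples.

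Genes with a PCGF5 peak near their start were taken from the study's list. It came from tagged PCGF5 in Sox1-GFP ESCs, and so from another assay and another cell line. Of these, 103 were tested, 0 were called by limma and 27 had an unadjusted p under 0.05 and higher, with 2 lower, against 14.1% and 3.26% of all genes tested. Their median log2 fold change was 0.28, but 42 of them lie on chromosomes 6 and 11, which held 13.1% of all genes tested. Those 42 had a median of 0.49. The 61 elsewhere had a median of 0.07, equal to that of all genes outside the 2 chromosomes.

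Pluripotency genes were compared next, by list. None of 29 naive, 17 core and 17 primed pluripotency entries was called by limma, against 0.333% of all genes tested. At an unadjusted p under 0.05, 1, 0 and 2 were higher and 1, 0 and 2 lower, against 14.1% and 3.26% of all genes. Both Pcgf5-/- values were below wild type for 8, 6 and 4 and above for 4, 3 and 6, against 13.3% and 34.6% of all genes tested. The medians were -0.05, -0.08 and 0.06, against 0.11 for all genes tested. Esrrb, a nuclear receptor gene of the naive state, was at 144 and 138 FPKM in the wild-type samples and at 150 and 154 FPKM in the Pcgf5-/- samples. Tfcp2l1, another naive factor gene, was at 84.7 and 74.3 against 60.2 and 50.9 FPKM. Klf4, on chromosome 4, was at 127 and 92.9 against 169 and 133 FPKM. The genotypes did not overlap in these 3 genes, with Tfcp2l1 below and Esrrb and Klf4 above in Pcgf5-/- cells, and none passed the test. Of the primed genes, Otx2, a head and epiblast homeobox factor, was at 15.1 and 8.49 FPKM in the wild-type samples and at 5.71 and 2.17 FPKM in the Pcgf5-/- samples (log2 fold change -1.42 ± 0.42 SE, limma adjusted p = 0.136). The de novo methyltransferase gene Dnmt3b was at 26.9 and 37.9 against 14.4 and 19.5 FPKM (limma adjusted p = 0.271). Both of these genes had the lower values in Pcgf5-/- cells without overlap, and neither passed the test.

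The study asks whether PCGF5 is needed for neural differentiation through TGF-beta signalling, and these pathways were read in the undifferentiated cells. None of 36 Nodal and TGF-beta genes, 18 BMP genes, 25 neural markers and 25 HOX genes was called by limma, against 0.333% of all genes tested. At an unadjusted p under 0.05, 1, 0, 1 and 0 were higher and 0, 0, 0 and 1 lower, against 14.1% and 3.26% of all genes. The medians were 0.10, 0.19, 0.02 and 0.07. The ligand gene Nodal was at 37.2 and 28.6 FPKM in the wild-type samples and at 41.1 and 30.2 FPKM in the Pcgf5-/- samples. Its antagonist gene Lefty1 was at 6.97 and 25.4 against 5.75 and 9.07 FPKM, and the ranges overlapped for both. Tgfb1 was at 6.84 and 3.25 FPKM in the wild-type samples and at 9.59 and 10.5 FPKM in the Pcgf5-/- samples (limma adjusted p = 0.172). The neural marker under 0.05 was Tubb3, which was higher, at 33.8 and 43.7 against 50.5 and 65.7 FPKM (limma adjusted p = 0.205). Sox21, a neural progenitor factor gene, was counted in the naive list and not among the neural markers. It was at 4.86 and 2.91 against 1.89 and 1.66 FPKM (limma adjusted p = 0.106), and it was called lower at day 6 at -1.41.

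Of 25 imprinted genes tested, Mest rose and 0 fell, against 0.288% and 0.0454% of all genes, and 6 were higher and 0 lower at an unadjusted p under 0.05, against 14.1% and 3.26%. Both Pcgf5-/- values were above wild type for 10 and below for 3, against 34.6% and 13.3% of all genes. The median of the list was 0.38, at 0.74 for the 5 genes on chromosomes 6 and 11 and 0.25 for the 20 elsewhere. Phlda2, a maternally expressed placental gene, was at 4.67 and 1.11 FPKM in the wild-type samples and at 11.6 and 9.08 FPKM in the Pcgf5-/- samples (limma adjusted p = 0.0918). The growth factor gene Igf2 was at 15.0 and 9.90 against 10.8 and 65.5 FPKM and its neighbour H19 at 33.2 and 8.67 against 23.0 and 70.6 FPKM. The high value of each was in Pcgf5-/- replicate 2, the library with the highest summed level of fibroblast genes. Rian and Meg3, non-coding RNAs of the maternal copy of one cluster on chromosome 12, were at 47.9 and 52.8 against 85.1 and 69.3 FPKM and at 54.8 and 42.8 against 78.3 and 67.7 FPKM.

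A rule on fold change alone, set here at 3-fold between the genotype means and with no test, gave other genes. Among 11765 genes with a mean over 1 FPKM in a genotype at day 0, and with 0.01 FPKM added, 132 (1.12%) were at least 3-fold higher and 59 (0.501%) at least 3-fold lower in Pcgf5-/- cells. Of these, 11 and 4 were also called by limma, and the larger mean was under 5 FPKM for 90 and 37. With 1 FPKM added the counts were 25 and 18, without wild-type replicate 1 they were 370 and 131, without wild-type replicate 2 they were 150 and 39, without Pcgf5-/- replicate 1 they were 245 and 90, and without Pcgf5-/- replicate 2 they were 139 and 109. Chromosomes 6 and 11, with 13.1% of all genes tested, held 29 of the 132 and 3 of the 59. At day 6 the direction was the same for 81 of the 132 and 19 of the 59, where 52.0% of all genes tested were above wild type. The metabolic enzyme genes Fbp2 and Cyp7b1 had some of the largest differences below wild type among genes whose samples were apart. Fbp2, a fructose bisphosphatase gene, was at 3.48 and 13.3 FPKM in the wild-type samples and at 0.59 and 2.26 FPKM in the Pcgf5-/- samples, and Cyp7b1, an oxysterol hydroxylase gene, at 1.28 and 5.12 against 0.151 and 0.631 FPKM. In both genes wild-type replicate 2 held the high value. Neither was called (limma adjusted p = 0.121 and 0.123). Among the genes above, Paqr9, of the progestin and adipoQ receptor family, was at 0.126 and 0.159 FPKM in the wild-type samples and at 1.04 and 1.65 FPKM in the Pcgf5-/- samples.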

How the data were processed

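RNA from Pcgf5-/- and wild-type ESCs was measured at days 0 and 6, with 2 samples in each of 4 groups taken from GEO's labels. The authors trimmed reads, removed identical reads, aligned with TopHat2 2.0.4 to mm9 and estimated FPKM with Cufflinks 2.1.1. The deposited FPKM values, with confidence bounds, were used as they stand. FPKM keeps no read counts, so depth is unknown and no counting interval is given. Values were tested as log2(FPKM + 1) with limma 3.58.1 (R 4.3.3, empirical Bayes with a variance trend) on all 8 samples, over 13214 of 24849 genes with a mean over 1 FPKM in at least 1 group, with Benjamini-Hochberg adjustment at 0.05. Fold changes are on that scale, which understates low genes. Tables were made with Python 3.11.15, and the fit was tested on simulated data. File starts count from 0 and are printed counting from 1.

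The genes to be named were Pcgf5 and its neighbours, every called gene, the called and extreme members of each list, PCGF, PRC1, pluripotency and TGF-beta genes by level, the 10 largest rises and falls by the 3-fold rule, and the 5 genes farthest from the median of chromosomes 6 and 11. Others, such as those of the chromosome 8 and 9 stretches, Slbp, Npat and Mki67, were chosen after their values were seen. The 27 lists covered naive, core and primed pluripotency, two-cell-like genes, PCGF paralogs, PRC1 partners, PRC2, Nodal and TGF-beta, BMP, neural, HOX, mesendoderm, primitive endoderm, trophoblast, feeder, germline, p53, heat shock, immediate early, DNA methylation, imprinted, epoxide and glutathione, mitotic, histone, Pcgf5 neighbour and PCGF5-peak genes, and the mitochondrial genome, of which no gene was found by name. Members and lists were chosen with earlier results of these data known. Alternatives changed the added value, minimum, samples, scaling, variance trend and replicate block.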

Additional observations from a re-analysis of the deposited data

Results flagged for a closer look

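For 20 of the genes examined singly, the Pcgf5-/- against wild-type difference was not the same at the 2 days in a test of the difference itself (limma, adjusted p under 0.05, as for 408 or 3.09% of all genes tested). The values are day 6 minus day 0 on the log2(FPKM + 1) scale. Among the called genes, Ephx2 was at 3.36, Trpm1 at 1.87, Mest at -1.31, Cotl1 at -2.28, Tub at -1.98 and Slain1 at -1.51, and the short RNA genes Gm24148 and Scarna6 were at 6.08 and 1.67. These last values restate the day 0 fit with its sign turned, since both genes were listed at 0 in all day 6 samples and in the Pcgf5-/- samples of day 0, and they are no measure or bound of a fold change.

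For 5 pluripotency genes the difference from wild type was higher at day 6 than at day 0. Esrrb was at 2.29, Zfp42 at 2.29, Tfcp2l1 at 1.96, Nanog at 1.88 and Otx2 at 2.80. In the Polycomb complexes, Yaf2 was at -1.71 and E2f6 at -0.91, both above wild type at day 0 and below at day 6 without passing the test on either day. The glutathione genes Gsta4 and Gsr were at 1.08 and 0.92, the imprinted gene Nnat at -1.81, and the chromosome 11 genes Calcoco2 and Osm at 2.73 and 1.73.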

How the results depend on the processing

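Depth is unknown and each group had 2 samples, which limits the size of difference that can pass. The 38 higher and 6 lower genes became 2 and 4 without a minimum FPKM, 88 and 14 at a mean over 5 FPKM, 59 and 7 at a mean over 1 FPKM at day 0, and 0 and 0 with only day 0 samples, at 2019 genes with an unadjusted p under 0.05 by limma. They became 0 and 3 under quantile normalization (1009 and 883 unadjusted), and 0 and 2 with each of centring outside chromosomes 6 and 11, centring per chromosome (656 and 912 unadjusted), no variance trend and no genes of chromosomes 6 and 11. In every setting each called gene that was tested kept its direction. For settings that kept the scaling and the FPKM this was fixed beforehand, since the genotypes did not overlap in these genes.

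With 1 library left out, higher genes ranged from 0 to 9 and lower genes from 2 to 13, in fits that assume the lone sample to vary like the other groups. Chromosome medians then ranged from 0.39 to 0.45 on chromosome 6 and from 0.47 to 0.50 on chromosome 11, against 0.41 and 0.48, and the 3-fold rule gave 139 to 370 higher and 39 to 131 lower genes. Those medians were 0.52 and 0.59 with 0.01 FPKM added, 0.50 and 0.58 with 0.1, 0.46 and 0.51 at a mean over 5 FPKM, and 0.27 and 0.35 under quantile normalization. The fold rule gave 1946 and 515 genes at 1.5-fold, 565 and 179 at 2-fold, 25 and 18 with 1 FPKM added, and 1051 and 706 without a minimum. In the histone list and the other lists, 192 of the alternative medians moved by no more than the median SE of a single gene in the list. The other 16 moved by more. That SE is a yardstick for single genes and not for the median of a list.

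With the replicate number as a block, 0 genes were higher and 1 (Gm24148) lower, and with a block for each day 237 and 45. The correlation of replicate differences between genotypes was 0.10 at day 0 and 0.39 at day 6 over only 2 pairs, so the numbers were not taken to pair the samples.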

Other observations

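Other groups of genes were read in the undifferentiated cells, against a median of 0.11 for all genes tested. Lineage and cell-state lists held no called gene by limma, against 0.333% of all genes tested. The medians were 0.29 over 11 mesendoderm genes, 0.29 over 17 primitive endoderm genes and 0.39 over 12 trophoblast genes. At a limma unadjusted p under 0.05, 0, 0 and 2 members were higher and none was lower, against 14.1% and 3.26% of all genes. For 5 two-cell-like genes that were tested, the median was -0.39. Of 18 germline genes, 9 had both Pcgf5-/- values above wild type and 0 both below, against 34.6% and 13.3% of all genes tested, at a median of 0.26. Tex19.1, a germline and placental gene on chromosome 11, was at 28.2 and 31.5 FPKM in wild type and at 76.5 and 80.0 FPKM in Pcgf5-/- cells, and Dazl, an RNA-binding protein gene of germ cells, was at 7.79 and 14.2 against 21.0 and 21.1 FPKM. Both were called higher at day 6, at 2.19 and 1.68, and neither at day 0.

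Stress and signalling lists also held no call by limma, against 0.333% of all genes tested. The medians were 0.10 over 25 p53 targets, 0.05 over 22 heat shock and unfolded protein genes, 0.33 over 17 immediate early genes and 0.04 over 15 genes of DNA methylation and demethylation. The antioxidant gene Hmox1 was at 82.0 and 67.4 FPKM in wild type and at 154 and 125 FPKM in Pcgf5-/- cells. Gstp2, a glutathione transferase gene, was at 89.6 and 108 against 160 and 138 FPKM and was called higher at day 6, at 1.31.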
